A study of Mus musculus with 21 samples.

Results

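Expression of 10 genes of microglia and tissue macrophages (C1qa, C1qb, C1qc, Csf1r, Cx3cr1, Aif1, Trem2, Tyrobp, P2ry12 and Cd68) was followed in the brain, liver and skin of newborn mice. The genes were given as a list of symbols, and all 10 were found among the 24391 gene symbols of the count tables. RNA was taken at P0, the day of birth, from C57BL/6 mice of 2 genotypes, 2 Jak1 KI mice and 5 wild type (WT) mice, with 1 library per mouse and tissue and 21 libraries in all. The KI mice are heterozygous for a Cas9 knock-in of Jak1 that encodes H595D and carries the silent changes I596I and Y597Y beside it, which the WT mice lack (Jak1 H595D/+;I596I/+;Y597Y/+). No other allele and no treatment is given, and according to the study's results section the KI pups descend from a male mosaic for the knock-in. P-values therefore rest on 2 KI libraries per tissue, and the labels do not say whether the mice shared a litter.

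Microglia are the resident macrophages of the brain, Kupffer cells those of the liver sinusoids, and the dermis holds macrophages of its own. All of them depend on Csf1r, the receptor for the ligands Csf1 and IL-34. The 3 C1q chains assemble into the recognition unit that starts the classical complement pathway, and macrophages are their main source. Tyrobp, also called DAP12, is the signalling adaptor of Trem2, a receptor for lipids and apolipoproteins. Cx3cr1 is the receptor for the chemokine Cx3cl1, P2ry12 is a purine receptor of resting microglia, Aif1 encodes the actin-binding protein Iba1, and Cd68 is a protein of the late endosome and lysosome. In newborn mice the liver is also a site of blood formation. Whole tissues were sequenced, so fewer cells of a type and less RNA per cell cannot be told apart.

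The 3 C1q genes lie side by side on the minus strand of chromosome 4 in NCBIM37, the assembly known as mm9. C1qb spans chr4:136436044-136442102, C1qc chr4:136445719-136448980 and C1qa chr4:136451832-136454718, with gaps of 3616 and 2851 bases between them. The cluster covers 18675 bases and starts 35498156 bases beyond the end of Jak1, which lies on the same chromosome. Start-site sequences were matched for 7 of the 10 genes in RefSeq, build GRCm38.p6, as windows of 300 bases around the gene's start. The windows of C1qb and C1qc are shown because these neighbours kept nearly the same level in each tissue, and that of Aif1 because it stands for the genes outside the cluster that differed between KI and WT liver. Capitals mark motif matches, and the windows are chr4:136886151-136886450, chr4:136892865-136893164 and chr17:35176003-35176302, each on the minus strand and written 5′ to 3′.
C1qb: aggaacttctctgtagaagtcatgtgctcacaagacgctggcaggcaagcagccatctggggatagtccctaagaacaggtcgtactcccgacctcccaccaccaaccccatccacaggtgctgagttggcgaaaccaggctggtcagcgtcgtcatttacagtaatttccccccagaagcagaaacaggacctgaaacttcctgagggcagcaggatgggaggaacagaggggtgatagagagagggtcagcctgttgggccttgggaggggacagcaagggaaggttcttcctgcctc
C1qc: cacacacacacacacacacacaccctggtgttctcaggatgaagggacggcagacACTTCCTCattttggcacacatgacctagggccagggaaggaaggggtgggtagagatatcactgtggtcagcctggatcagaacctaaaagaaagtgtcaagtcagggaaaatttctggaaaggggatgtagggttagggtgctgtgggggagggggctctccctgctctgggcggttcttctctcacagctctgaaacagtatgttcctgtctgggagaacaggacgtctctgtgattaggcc
Aif1: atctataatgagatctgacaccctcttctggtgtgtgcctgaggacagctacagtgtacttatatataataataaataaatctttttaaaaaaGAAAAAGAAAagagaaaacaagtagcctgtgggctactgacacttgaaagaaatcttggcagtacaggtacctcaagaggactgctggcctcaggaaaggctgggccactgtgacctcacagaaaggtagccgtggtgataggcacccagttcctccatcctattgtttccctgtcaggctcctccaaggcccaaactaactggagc
Both strands were searched for GAGGAAGT, a form of the site bound by the macrophage factor PU.1, for TTCNNNGAA, the GAS motif of STAT factors, and for GAAA, any 2 bases and GAAA again, a core of the interferon-stimulated response element (ISRE). The capitals in C1qc are GAGGAAGT read on the opposite strand, 195 bases before the start, and those in Aif1 are the ISRE core, 157 bases before the start. Each was found in 1 of the 7 member windows, and these letters occur in 3.20% and 3.44% of the 32851 windows of the same length. TTCNNNGAA, found in 8.30% of all windows, was in none of the 7 member windows. The window of Cd68, another gene outside the cluster that differed between KI and WT liver, held no match. Tyrobp and Csf1r were not among the 7 genes with a window. No matches overlapped each other. A match describes the letters only.

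The other genes lie apart, at chr9:119957811-119977400 (Cx3cr1, minus strand), chr17:35307936-35313013 (Aif1, minus), chr17:48485726-48493472 (Trem2, plus), chr7:31198807-31202596 (Tyrobp, plus), chr3:59020193-59066753 (P2ry12, minus), chr11:69477715-69479655 (Cd68, minus) and chr18:61265226-61291803 (Csf1r, plus). Csf1r shares 871 exon bases with Hmgxb3 on the opposite strand, and the libraries do not mark strand, so reads from that stretch cannot be assigned to either gene. P2ry12 lies within Med12l on the opposite strand, with 0 shared exon bases.

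Between 26549326 and 38388133 reads were counted on genes per library, and the 10 genes had between 34 and 8545 counts each. Levels are given as CPM, in which the counts on genes of a library are scaled to the same total, and fold changes come from the model below, which scales libraries by TMM. Jak1 itself had 196 and 212 CPM in KI against 142 to 175 CPM in WT livers, 202 and 209 against 170 to 194 CPM in skin, and 188 and 189 against 108 to 188 CPM in brain. The substitution cannot be read from gene counts. Defining markers followed the labels: the summed CPM of 6 neuronal genes was 6499 to 7957 in the brain, that of 6 hepatocyte genes was 127143 to 153061 in the liver, and that of 6 keratinocyte genes was 834 to 13439 in the skin. In the skin, the keratinocyte sum thus ranged widely, with 11562 in KI 1 and 834 in KI 2. The library Brain WT 5 stood apart, with the smallest total of the series and, against the other 4 WT brains, a rank correlation of -0.46 between its deviation and gene length over 15824 genes. Brain results are therefore also given without it.

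WT liver and WT skin held far more reads of the C1q genes, Csf1r and Tyrobp than WT brain. Csf1r was at 20.1, 37.3, 27.7, 27.6 and 18.1 CPM in the 5 WT brains. In WT liver it was at 158, 201, 174, 181 and 142 CPM, and in WT skin at 134, 94.9, 112, 108 and 115 CPM. No library of one tissue reached the range of another. C1qb was at 24.4, 35.5, 26.4, 23.4 and 33.4 CPM in brain. It rose to 128, 160, 187, 164 and 159 CPM in liver and to 122, 109, 108, 106 and 117 CPM in skin. Tyrobp was at 12.96, 17.5, 12.3, 10.8 and 12.3 CPM in brain, at 77.4, 84.97, 88.6, 76.4 and 84.8 CPM in liver and at 65.3, 60.9, 42.8, 57.3 and 64.4 CPM in skin. For C1qa, C1qb, C1qc, Csf1r and Tyrobp alike, the order in CPM was liver, skin, brain without overlap between tissues.

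The phagocyte genes Cd68 and Aif1 also had their lowest levels in brain, but liver and skin overlapped. WT brain gave 4.26 to 6.95 CPM of Cd68, against 21.9 to 30.4 CPM in liver and 23.3 to 37.1 CPM in skin. Aif1 was at 2.95 to 5.57 CPM in brain, 10.9 to 14.5 CPM in liver and 9.53 to 11.99 CPM in skin.

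Cx3cr1, P2ry12 and Trem2 did not follow this order. Cx3cr1 was at 17.5, 17.6, 18.1, 13.4 and 10.8 CPM in WT brain and at 17.2, 18.9, 15.4, 6.88 and 19.4 CPM in WT skin, so brain and skin overlapped. Its level in WT liver was 10.2, 9.95, 9.002, 6.17 and 5.64 CPM, below every WT brain. Trem2 was highest in brain, with 4.39 to 6.82 CPM against 0.984 to 2.68 CPM in liver and 2.23 to 4.07 CPM in skin. For P2ry12 the ranges were 5.84 to 12.3 CPM in brain, 5.09 to 6.64 CPM in liver and 4.22 to 6.62 CPM in skin, and each overlapped its neighbour.

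**Figure D1:**
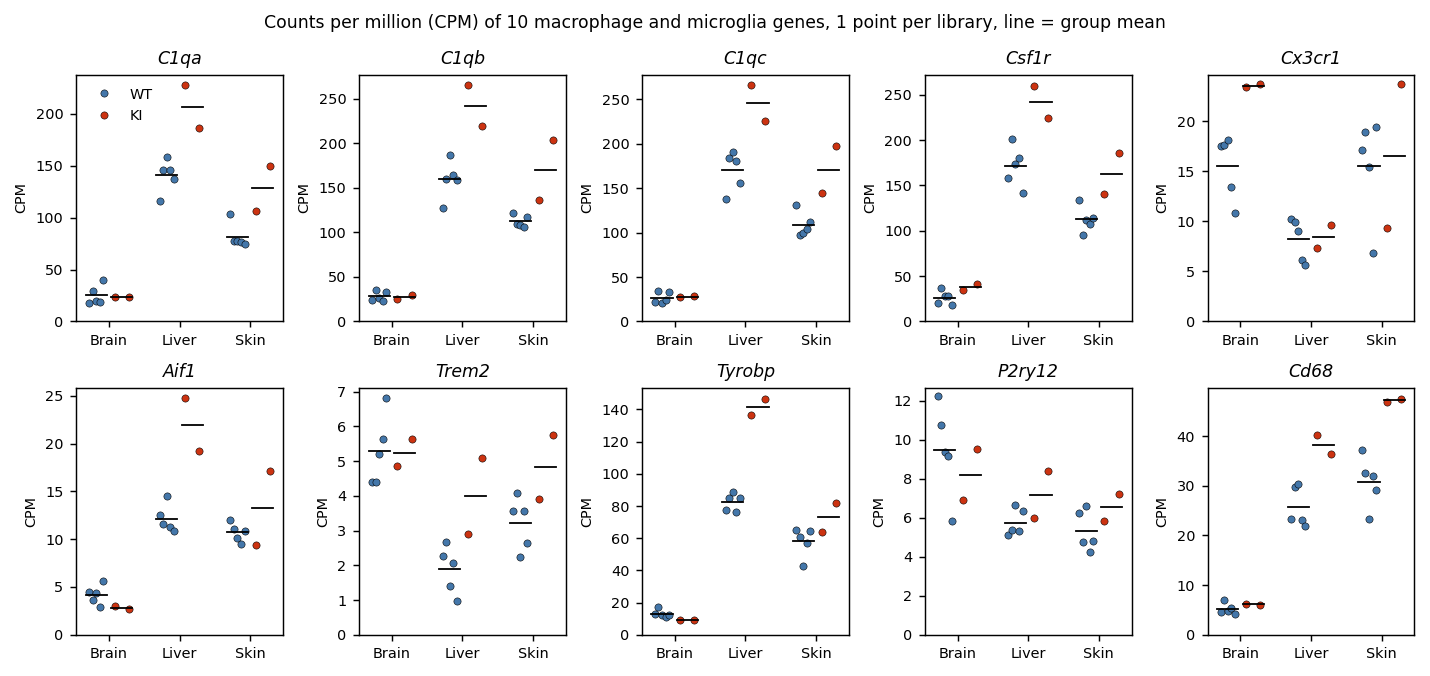
Level of each gene in CPM (vertical axis, linear, from 0) in the brain, liver and skin libraries, with 1 point per library, WT in blue (n = 5), KI in red (n = 2), and a line at the group mean. The C1q genes, Csf1r and Tyrobp are lowest in brain and highest in liver, while Cx3cr1, Trem2 and P2ry12 are not lower in brain than in liver.

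The WT tissues were compared with the quasi-likelihood test of edgeR against a difference of 2-fold, with Benjamini-Hochberg adjustment over 17071 genes, and genes with an adjusted p under 0.1 were called. Between brain and liver, 7 of the 10 genes were called lower in brain, where 26.2% of all genes tested were called lower and 29.5% higher. The log2 differences were -3.50 ± 0.19 (SE) for Csf1r, -3.45 ± 0.19 for C1qc, -3.44 ± 0.15 for Tyrobp, -3.10 ± 0.17 for Cd68 and -2.32 ± 0.18 for Aif1. Those of C1qa and C1qb were both -3.27. Not called were Cx3cr1 (0.13 ± 0.25), P2ry12 (-0.08 ± 0.21) and Trem2 (0.71 ± 0.27). The same 7 genes were called lower in brain than in skin, where 24.9% of all genes were called lower and 21.8% higher, with log2 differences from -2.65 ± 0.17 for Cd68 to -1.43 ± 0.17 for Aif1. Cx3cr1 (-0.08 ± 0.25), P2ry12 (0.74 ± 0.21) and Trem2 (0.65 ± 0.27) were again not called. These comparisons share the brain libraries.

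Liver and skin differed less. The study's methods report lower RNA integrity for the skin samples than for the liver samples, so tissue and RNA quality cannot be told apart here. C1qa (1.497 ± 0.22), C1qc (1.35 ± 0.17), Csf1r (1.31 ± 0.18), Tyrobp (1.22 ± 0.14) and C1qb (1.22 ± 0.15) were called higher in liver on the log2 scale, and no member was called lower. Over all genes 15.3% were called higher and 23.4% lower. These calls changed with the scaling and with the test. Scaling by total counts in place of TMM moved the median gene by -0.71 in liver against skin and by 0.79 in brain against liver. On total counts 0 of the 10 genes were called between liver and skin, with log2 differences of 0.78 for C1qa and 0.50 for C1qb. Cd68 turned from 0.45 to -0.27, and P2ry12 in brain against liver turned from -0.08 to 0.72. With the test of DESeq2 only C1qa was called between liver and skin.

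Per kilobase of annotated exon (RPKM, the mean of 5 WT libraries), the order of the genes could be compared within a tissue. In WT brain C1qb stood at 26.3 ± 5.07 RPKM (SD), C1qa at 24.1 ± 9.21, Tyrobp at 23.3 ± 4.49 and C1qc at 13.9 ± 3.39. Csf1r (5.00), Cx3cr1 (4.16), Cd68 (4.12), P2ry12 (3.98), Aif1 (2.75) and Trem2 (1.07) followed, and the spreads of Csf1r, Cx3cr1, Cd68 and P2ry12 overlapped. In WT liver C1qb and Tyrobp were nearly level at 147 ± 19.5 and 146 ± 9.40 RPKM, while Cx3cr1 (2.20), P2ry12 (2.42) and Trem2 (0.380) were the lowest. In WT skin C1qb (103 ± 6.15) and Tyrobp (103 ± 16.2) led again, and Trem2 (0.650) was the lowest. The annotation sets part of this order. With the length of the longest coding transcript in place of all exons, a change chosen after seeing the data, WT brain gave 22.4 RPKM for C1qc, 4.81 for Aif1 and 4.86 for Trem2.

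The 3 C1q chains kept close to constant proportions. Of their summed RPKM, C1qa made up 36.7% ± 4.41 (SD, n = 5) in WT brain, 36.6% ± 0.403 in WT liver and 32.9% ± 1.96 in WT skin. The share of C1qb was 41.5%, 39.6% and 43.5%, and that of C1qc was 21.8%, 23.8% and 23.6%. In KI libraries the shares of C1qa were 36.7%, 36.2% and 33.5% in the same tissues.

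Levels were also set against Csf1r in the same library, which does not depend on scaling between libraries. Csf1r is itself lower in brain, so a gene that is not lower there has a higher ratio by construction, and the values below give its size. In WT brain there were 0.617 ± 0.161 (SD, n = 5) reads of Cx3cr1 for each read of Csf1r, against 0.0480 ± 0.0118 in liver and 0.140 ± 0.0508 in skin. For P2ry12 the values were 0.378 ± 0.130, 0.0343 ± 0.00722 and 0.0474 ± 0.00774. For Trem2 they were 0.221 ± 0.0950, 0.0108 ± 0.00323 and 0.0291 ± 0.00909. C1qc, by contrast, stood at 1.10 ± 0.437, 0.997 ± 0.102 and 0.968 ± 0.0480 reads per read of Csf1r. The WT brains lay above all WT livers and skins for Cx3cr1, P2ry12 and Trem2, while for C1qc the tissues overlapped.

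**Figure D2:**
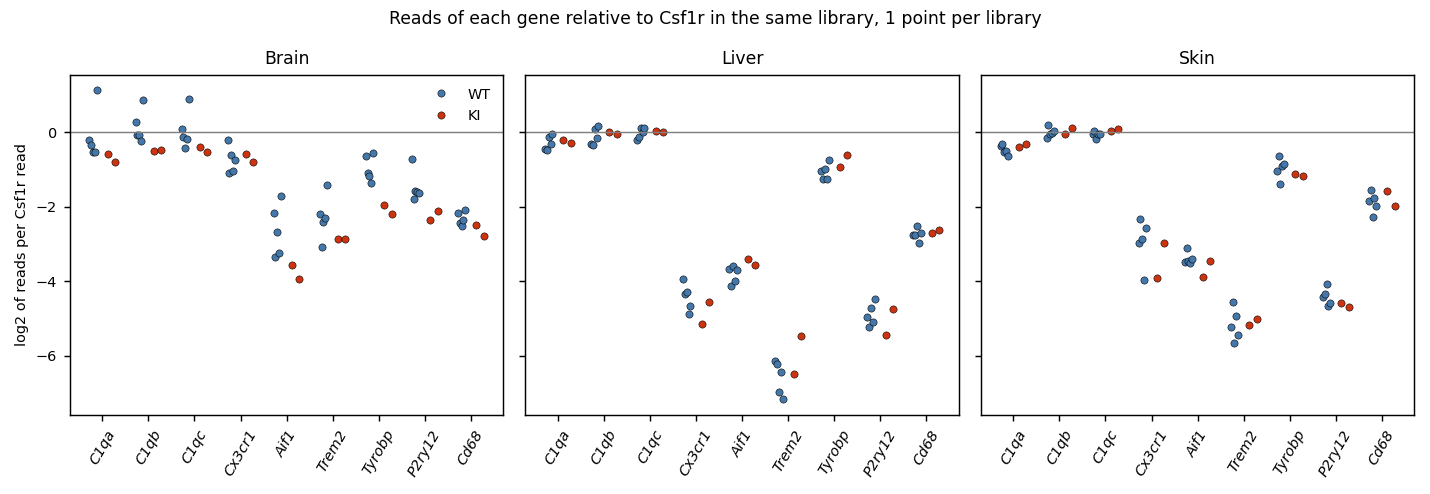
Reads of each gene per read of Csf1r in the same library (vertical axis, log2, 0 means as many reads as Csf1r) in brain, liver and skin, with 1 point per library, WT in blue and KI in red. Cx3cr1, P2ry12 and Trem2 lie higher in the brain panel than in the liver and skin panels, whereas the C1q genes lie near 0 in all panels.

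A wider list of 12 genes enriched in microglia did not single out the brain. Of the 12 genes, 3 were called higher in WT brain than in WT liver, namely Gpr34, Fcrls and the fructose transporter Slc2a5, and 4 were called lower. Gpr34, an orphan receptor, was at 5.59 ± 2.07 CPM (SD, n = 5) in brain, 0.122 in liver and 2.68 in skin. Siglech, a lectin, was at 2.92 CPM in brain, 0.976 in liver and 0.370 in skin. Tmem119, widely used as a microglia marker, was at 3.61 CPM in brain but at 100.2 in skin, and Fcrls was at 23.4 CPM in brain, 0.622 in liver and 41.8 in skin. Of 12 Kupffer cell genes, 8 were called higher in WT liver than in WT skin and 1 lower, the scavenger receptor Cd163 (-2.16 ± 0.37). Clec4f was at 167 CPM in WT liver, 0.0478 in brain and 0 in skin, and the complement receptor Vsig4 at 24.3, 0 and 0.00578 CPM. Cd207, the lectin of Langerhans cells, was at only 0.0730 CPM in WT skin, and the dermal macrophage gene Mrc1 was at 201 CPM.

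The ligands of these receptors had their own patterns. Cx3cl1, the ligand of Cx3cr1, was at 130 CPM in WT brain, 2.11 in liver and 14.9 in skin. Of the ligands of Csf1r, Csf1 was at 11.5, 16.8 and 85.4 CPM and Il34 at 6.58, 0.520 and 13.5 CPM in brain, liver and skin. Apoe, a ligand of Trem2 made by hepatocytes and many macrophages, was at 1034, 9072 and 1229.8 CPM.

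In the liver, 6 of the 10 genes were called higher in KI than in WT mice, where 3.89% of all 14966 genes tested were called higher and 1.68% lower. Genes were called at an adjusted p under 0.1 in edgeR's quasi-likelihood test with Benjamini-Hochberg adjustment over all genes. All 10 log2 fold changes were above 0, with a median of 0.55 against -0.02 over all genes. For 8 of the 10 genes the lower KI liver exceeded the highest of the 5 WT livers, which held for 13.8% of all genes tested.

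Tyrobp, the adaptor, had 137 and 147 CPM in the KI livers, against 76.4 to 88.6 CPM in the WT livers listed above. The groups lay far apart, and its log2 fold change was 0.76 ± 0.10 (SE, adjusted p = 0.00713). Aif1 had 24.7 and 19.2 CPM in KI against 12.5, 11.6, 14.5, 11.3 and 10.9 CPM in WT livers, a log2 fold change of 0.84 ± 0.15 (adjusted p = 0.0260). Cd68 had 40.2 and 36.3 CPM in KI against 23.3, 29.7, 30.4, 23.0 and 21.9 CPM in WT livers, with a log2 fold change of 0.56 ± 0.15 (adjusted p = 0.0882). In each of these genes the lower KI liver was above the highest WT liver.

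The C1q chains and Csf1r moved by similar amounts, close to the threshold. C1qa had 227 and 186 CPM in KI against 116, 146, 158, 146 and 137 CPM in WT livers (log2 fold change 0.54 ± 0.14, adjusted p = 0.0935). C1qb had 265 and 219 CPM in KI against 128 to 187 CPM in WT livers (0.58 ± 0.16, adjusted p = 0.0932). C1qc had 266 and 226 CPM against 138, 184, 191, 181 and 155 CPM, and with 0.52 ± 0.15 it was not called (adjusted p = 0.105). Csf1r had 260 and 224 CPM in KI against 142 to 201 CPM in WT livers (0.49 ± 0.13, adjusted p = 0.0935). For all 4 genes KI 1 was the higher of the KI livers and the groups did not overlap.

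Trem2, Cx3cr1 and P2ry12 were not called in the liver. Trem2 had 2.89 and 5.08 CPM in KI against 2.26, 2.68, 1.40, 2.08 and 0.984 CPM in WT livers, and its log2 fold change of 1.07 ± 0.37 had the largest error of the 10 (adjusted p = 0.170). Cx3cr1 had 7.30 and 9.62 CPM in KI, within the WT range, at 0.04 ± 0.24 (adjusted p = 0.959). P2ry12 had 6.00 and 8.38 CPM in KI against 5.09 to 6.64 CPM in WT livers, at 0.30 ± 0.20 (adjusted p = 0.471).

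Fewer genes were called with 1 KI liver left out, among the members and over all genes alike. In those settings the spread comes from the WT livers alone. Without WT 5 only Tyrobp and Aif1 were called, where 547 of 14846 genes were called higher and 193 lower. The median of the 10 genes was 0.47 without KI 1 and 0.64 without KI 2. The fold changes of the 6 called genes stayed above 0 in all 13 tested settings, the one above included, of which Tyrobp was called in 12, Aif1 in 10, C1qa, C1qb and Cd68 in 8 and Csf1r in 6. Over these settings Tyrobp ran from 0.73 to 0.84 and Cd68 from 0.49 to 0.65.

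**Figure D3:**
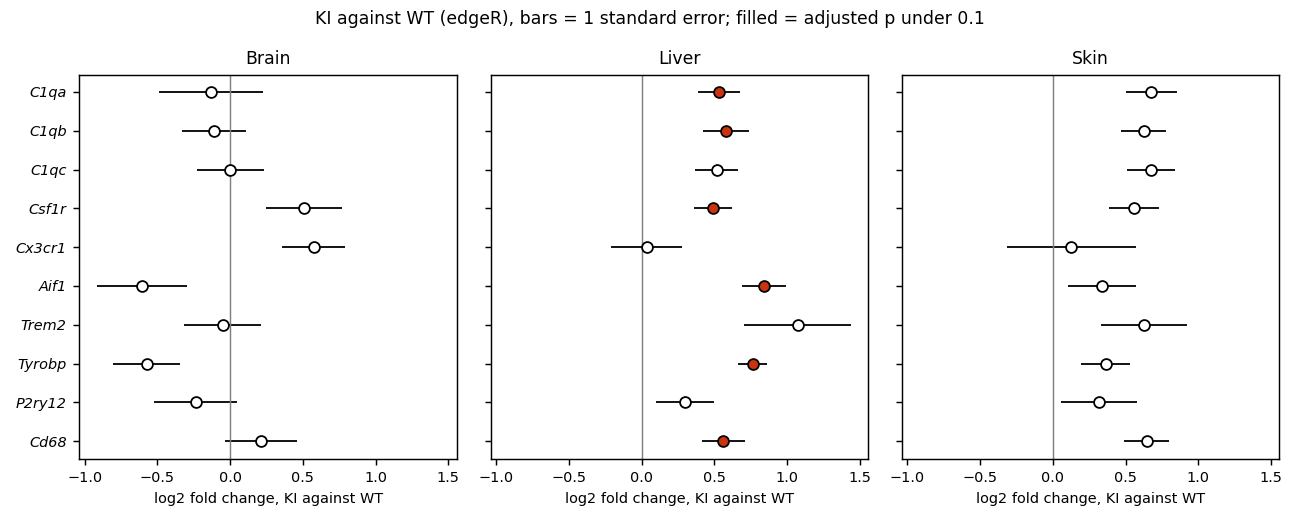
Log2 fold change of KI against WT (horizontal axis) for each gene in brain, liver and skin, with bars of 1 standard error. Filled points have an adjusted p under 0.1 and occur only in the liver panel, for C1qa, C1qb, Csf1r, Aif1, Tyrobp and Cd68.

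Other leukocyte genes were higher in the KI livers too. Of 22 genes shared by macrophages, 16 were called higher and none lower, with a median log2 fold change of 0.67. Among them Fcgr2b, the inhibitory IgG receptor, rose by 1.58 ± 0.17, the IgG receptors Fcgr4 and Fcgr1 by 0.99 ± 0.19 and 0.85 ± 0.16, and the lysosomal protease Ctss by 0.85 ± 0.12. Of 5 genes of MHC class II presentation 4 were called higher (H2-Eb1, H2-Aa, H2-Ab1 and Cd74, by 0.65 to 0.87). Of 14 genes of the classical complement pathway and its receptors, which include the 3 C1q chains, 8 were called higher, among them C4b (0.80 ± 0.11), the anaphylatoxin receptor C5ar1 (0.79 ± 0.18) and Itgam (0.62 ± 0.13). Fewer macrophage, MHC class II and complement genes were called with 1 KI liver left out, as were fewer over all genes. The spread was again taken from the WT livers alone. The medians of these lists were 0.62, 0.68 and 0.59 without KI 2 and 0.74, 0.79 and 0.41 without KI 1.

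Of the 12 Kupffer cell genes 10 were above 0 and 2 were called higher, Cd5l (0.77 ± 0.19), a secreted scavenger protein, and the lectin Clec1b (0.50 ± 0.13), and the median of the list was 0.18. The difference from the other lists was not tested. Clec4f (0.25 ± 0.15), Timd4 (0.35 ± 0.14), Vsig4 (0.27 ± 0.14) and Marco (0.22 ± 0.21) were not called. Genes of monocytes, neutrophils and lymphocytes moved with the 10 genes, while the erythroid and mast cell lists each had a median of -0.51. Of 10 monocyte genes 4 were called higher, among them Ms4a4c (2.10 ± 0.39), the chemokine receptor Ccr2 (1.26 ± 0.25) and Plac8 (1.14 ± 0.11). Of 12 neutrophil genes 7 were called higher, and their summed level was 6740 and 8119 CPM in KI against 4158 to 5436 CPM in WT livers. Of 8 lymphocyte genes 4 were called higher, with sums of 98.6 and 105 CPM against 54.1 to 78.7 CPM. Of 6 erythroid genes 2 were called lower, with sums of 2718 and 2755 CPM against 3048 to 4556 CPM. Of 6 hepatocyte genes 1 was called lower, Apoc3 (-2.30 ± 0.21), and their sums were 127143 and 127975 CPM in KI against 134324 to 153061 CPM. The summed level of the 10 genes was 1080 and 1236 CPM in KI against 670 to 861 CPM in WT livers, and the part of the other cell types in it was not tested.

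**Figure D4:**
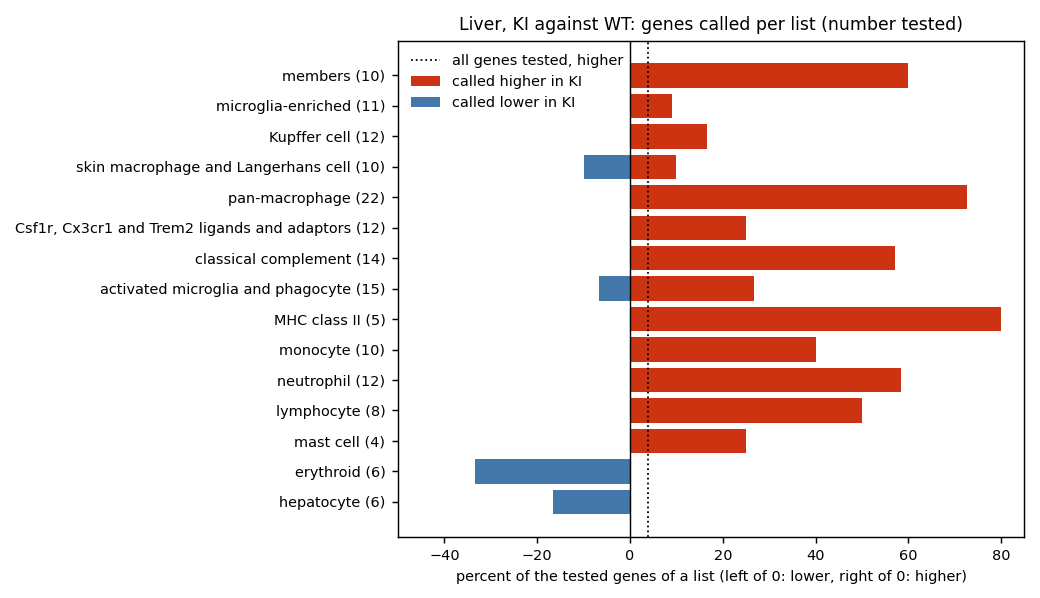
Percent of the tested genes of each list shown that were called in KI against WT liver, higher to the right of 0 and lower to the left. The number tested is in parentheses, and a dotted line marks 3.89%, the share of all genes called higher. The neuronal list (1 of 5 called higher, 1 lower) and the keratinocyte list (0 of 3 called) are not shown. The list of the 10 genes described here is labelled members, and macrophage, MHC class II, complement, neutrophil, lymphocyte and monocyte lists reach further right than the Kupffer cell list.

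Genes of activation and signalling gave mixed results in the liver. Of 15 genes linked to activated microglia and phagocytes, 4 were called higher and 1 lower. Lgals3 (1.00 ± 0.09), Clec7a (1.22 ± 0.18) and Gpnmb (1.68 ± 0.36) rose, as did Cd63 (0.57 ± 0.12), while Spp1, the cytokine osteopontin, fell by 2.07 ± 0.35. Of 12 ligands and signalling partners of Csf1r, Cx3cr1 and Trem2, the called genes were Csf2rb (1.45 ± 0.17), a subunit of the GM-CSF receptor, the kinase Syk (0.58 ± 0.10) and Csf1r itself. Csf1 (0.09 ± 0.16) and Il34 (0.12 ± 0.70) were not called. Of the 11 tested genes enriched in microglia only Selplg was called higher (0.91 ± 0.15). Of 10 genes of skin macrophages and Langerhans cells, F13a1 was called higher (0.60 ± 0.15) and Cd209f lower (-1.35 ± 0.33). Of 4 mast cell genes 1 was called higher, of 5 neuronal genes 1 was called higher and 1 lower, and of 3 keratinocyte genes none was.

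In the skin no member was called between KI and WT, where 0.0247% of 16163 genes (4 genes) were called. All 10 log2 fold changes were nevertheless above 0, with a median of 0.59 against -0.03 over all genes. For 5 genes both KI skins lay above all WT skins, which held for 3.98% of all genes. At an unadjusted p under 0.05 stood the same 5 genes, C1qa, C1qb, C1qc, Csf1r and Cd68. Over all 16163 genes, 467 were higher and 271 lower at that p. The test of DESeq2 called C1qc and Cd68, and over 19804 genes it called 97 higher and 12 lower.

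Cd68 had 46.8 and 47.6 CPM in the KI skins against 37.1, 32.6, 23.3, 32.0 and 29.2 CPM in WT skins, a log2 fold change of 0.65 ± 0.15 (edgeR, adjusted p = 0.680). The KI skins lay close to each other for this gene. C1qc had 145 and 197 CPM in KI against 131, 97.1, 99.8, 104 and 112 CPM in WT skins (0.68 ± 0.17), C1qb had 137 and 203 CPM against 106 to 122 CPM (0.62 ± 0.15), and Csf1r had 140 and 186 CPM against 94.9 to 134 CPM (0.56 ± 0.17). KI 2 was the higher library each time, and the lower, KI 1, was still above the highest WT skin. C1qa behaved alike, with 106 and 150 CPM against 74.1 to 104 CPM (0.68 ± 0.18).

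The other 5 genes overlapped between the genotypes in skin. Tyrobp had 64.1 and 82.1 CPM in KI (0.36 ± 0.17), Aif1 9.43 and 17.1 CPM (0.34 ± 0.23), Trem2 3.92 and 5.75 CPM (0.63 ± 0.30) and P2ry12 5.85 and 7.20 CPM (0.32 ± 0.26). Cx3cr1 differed most between the KI skins, with 9.36 and 23.8 CPM (0.13 ± 0.44). Without KI 2 the median of the 10 genes was 0.31, and Cx3cr1 and Aif1 fell below 0, at -0.71 and -0.16. The KI 2 skin was also the library with the lowest keratinocyte sum. Among the WT skins the lowest keratinocyte sum, 1411 CPM in WT 5, came with a member sum of 549 CPM, and the highest, 13439 CPM in WT 4, with 508 CPM. The part of skin composition was not tested.

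The wider lists had the same sign in skin without passing the test. All 22 macrophage genes were above 0, with a median of 0.64, and so were all 13 complement genes tested, with a median of 0.68, but edgeR called none of them. DESeq2 called 6 and 3 of them, where it called 97 of 19804 genes higher and 12 lower. The most abundant macrophage genes were Lgmn, a lysosomal protease, at 216 CPM in KI and 149 in WT skins, and Laptm5, a lysosomal membrane protein, at 136 and 93.0 CPM. Neutrophil genes did not lean to one side, with 6 of 12 above 0 and a median of 0.04. Mast cell genes, abundant in skin at sums of 2321 to 3795 CPM, had a median of 0.10.

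In the brain no member was called and 0% of 16322 genes were. At an unadjusted p under 0.05 there were 457 genes higher and 1275 lower, and DESeq2 called 56 higher and 458 lower, none of them members. Of the 10 genes 4 had a log2 fold change above 0, and the median was -0.08 against -0.02 over all genes.

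Cx3cr1 was the only member for which both KI brains lay above all WT brains, which held for 13.03% of all genes. It had 23.4 and 23.7 CPM in KI against the 10.8 to 18.1 CPM of WT brains (log2 fold change 0.57 ± 0.21, adjusted p = 0.405 in edgeR). Without WT 5 it was called, at 0.50 ± 0.15 with an adjusted p of 0.0898, and 1698 genes were called in all. Tyrobp was the only member with both KI brains below all WT brains, which held for 14.3% of all genes. It had 9.16 and 8.94 CPM in KI against 10.8 to 17.5 CPM in WT brains (-0.57 ± 0.23, adjusted p = 0.434), and -0.56 ± 0.21 without WT 5. Csf1r (0.51 ± 0.26) and Aif1 (-0.61 ± 0.31) overlapped between the genotypes, with 35.2 and 40.9 CPM of Csf1r and 3.01 and 2.65 CPM of Aif1 in KI brains.

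The complement, lysosomal and purinergic members were close to level in the brain. C1qa (-0.13 ± 0.36), C1qb (-0.11 ± 0.22), C1qc (0.00 ± 0.23), Trem2 (-0.05 ± 0.26), P2ry12 (-0.24 ± 0.28) and Cd68 (0.21 ± 0.25) overlapped between KI and WT. For C1qa and Cd68 the standard errors leave room for changes of the size seen in the liver (0.54 and 0.56). For Trem2 and C1qb the liver values (1.07 and 0.58) lay further from those in brain, measured by the brain standard errors. C1qa had 23.8 and 23.5 CPM in KI against 17.5, 29.5, 19.3, 19.2 and 40.0 CPM in WT brains, where WT 5 was the highest. Without WT 5 its log2 fold change was 0.15 ± 0.21.

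Gene length moved with these differences. Over 15824 genes, the brain fold changes had a rank correlation of 0.49 with exon length, against -0.19 in the liver and 0.08 in the skin, and on mean log2 CPM it was 0.36 without WT 5. Among the members, the shortest transcript, Tyrobp with 564 bases, had one of the lowest fold changes, and the long transcripts Cx3cr1 and Csf1r with 3729 and 5229 bases had the highest. Trem2 with 4946 bases (-0.05) and Cd68 with 1257 bases (0.21) did not follow this order. After the trend over all genes was subtracted, Tyrobp stood at 0.17, C1qa and C1qb at 0.37, Cd68 at 0.63, Cx3cr1 at 0.58 and Csf1r at 0.43, and 7 of the 10 genes were above 0. Aif1 stayed below 0 at -0.28. In the liver the subtraction left all 10 genes above 0, with a median of 0.50.

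**Figure D5:**
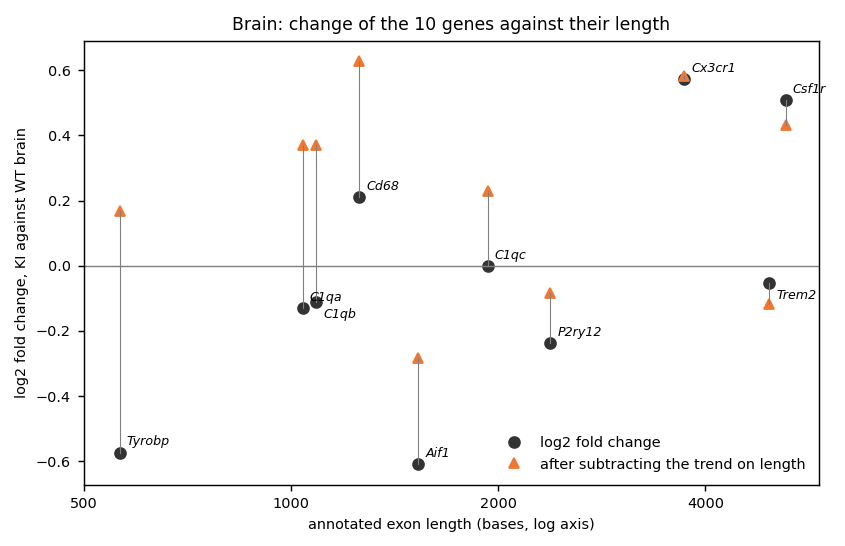
Log2 fold change of KI against WT brain (vertical axis) against annotated exon length in bases (horizontal, log axis) for the 10 genes, as circles, and after subtracting the trend of all genes on length, as triangles joined to them. Tyrobp, the shortest at 564 bases, moves from -0.57 to 0.17, while Cx3cr1 and Csf1r, among the longest, hardly move.

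Relative to Csf1r in the same library, 5 of the other 9 genes lay lower in both KI brains than in all WT brains, and 4 overlapped. Over all other genes tested 27.2% lay lower by this ratio, and Csf1r itself stood at 0.51 in KI brain. Tyrobp was at 0.260 and 0.218 reads per read of Csf1r in KI against 0.390 to 0.680 in WT brains, and Aif1 at 0.0648 to 0.0854 against 0.0988 to 0.308. C1qa, C1qb and P2ry12 were the others. Cx3cr1 was at 0.579 to 0.665 in KI and 0.473 to 0.870 in WT brains, so that it kept its proportion to Csf1r. In the liver 1 gene, Aif1, was above the WT range by this measure, and in the skin 1 gene, C1qc, was, where 1.57% and 0.464% of all other genes were. Csf1r is longer than most of the others, and the length trend described above was not removed from these ratios.

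The wider lists held no called gene in the brain. Of the 11 tested genes enriched in microglia 6 were above 0, with a median of 0.16. The most abundant was Sparc, a matrix protein that astrocytes and vessels also make, at 444 CPM in KI and 378 in WT brains. Of the 22 macrophage genes 13 were above 0, with a median of 0.13, and Lgmn was at 123 and 127 CPM and Cd83 at 39.6 and 42.8 CPM. Neutrophil genes were near absent, with sums of 5.50 to 15.1 CPM over all brains. The summed level of the 6 neuronal genes was 6499 and 6992 CPM in KI against 7278 to 7957 CPM in WT brains, and its part in the brain values was not tested. Without WT 5, 1 macrophage gene was called higher, and of the 12 tested genes of activated microglia and phagocytes 1 was called higher and 2 lower. Over all 16222 genes tested in that setting, 672 were called higher and 1026 lower.

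The KI effect itself was compared between tissues over all 21 libraries with edgeR, where 2.81% of 18062 genes were called between brain and liver, 0% between brain and skin and 0.0997% between liver and skin. Tyrobp (log2 difference of the effects -1.24 ± 0.25, adjusted p = 0.0314) and Aif1 (-1.35 ± 0.34, adjusted p = 0.0600) were called between brain and liver, both rising in KI liver and standing below 0 in KI brain. With KI 1 or KI 2 left out fewer genes were called, among the members and over all genes alike, and the spread then came from the WT libraries alone. Aif1 was not called without WT 1 or WT 2, where 134 and 242 genes were called in all, against 508 with every library. Both are among the shorter genes, and the length trend of the brain was not removed in this test. Between brain and skin 0 members were called, with an unadjusted p under 0.05 for Tyrobp (-0.88), Aif1 (-0.88) and C1qb (-0.67). At that p stood 594 of the 18062 genes above 0 and 745 below 0. Between liver and skin 0 were called, and the differences ran from -0.20 ± 0.30 for C1qc to 0.46 ± 0.34 for Aif1. DESeq2 changed the number of members called in none of these comparisons. Over all genes it called 1372 between brain and liver, 55 between brain and skin and 122 between liver and skin, against 508, 0 and 18 in edgeR.

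Across the 21 libraries the levels of the 10 genes fell into 2 sets. The log2 CPM of C1qa, C1qb, C1qc, Csf1r, Aif1, Tyrobp and Cd68 correlated with Pearson's r of 0.89 to 1.00 within the set. Cx3cr1, Trem2 and P2ry12 correlated with each other at 0.40 to 0.59 and with the first set at -0.64 to -0.38. The libraries share tissue, and these values mainly describe the tissues. After the mean of each tissue and genotype was removed, the highest r were those among the C1q chains, 0.90 for C1qa with C1qc, 0.88 for C1qb with C1qc and 0.83 for C1qa with C1qb, and the median over the 45 pairs was 0.25.

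The genes most like the mean of the 10 were found among 17416 genes over the 21 libraries. Without removing group means they were Ms4a6c, a myeloid membrane protein (r = 0.99), the lysosomal exonuclease Pld4, Zbp1, a sensor of Z-form nucleic acids, Unc93b1, which delivers nucleic acid receptors to endosomes, and Oas2, an interferon-induced antiviral enzyme (each r = 0.98). Ms4a6c was at 1.58 CPM in WT brain, 16.4 in liver and 15.3 in skin, and at 1.32, 32.4 and 24.0 CPM in KI. Zbp1 was at 0.284, 5.61 and 4.23 CPM in WT and at 0.446, 17.8 and 12.4 CPM in KI. After the group means were removed the leading genes were Rps6kc1 (0.80), Ly86, a partner of the receptor RP105 (0.79), Ms4a6c (0.79), Ms4a6b (0.76) and Apol7c (0.74). Apol7c was under 0.5 CPM in every group, which makes its value uncertain.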

How the data were processed

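RNA-seq libraries of brain, liver and skin from P0 mice were analysed, with 2 KI and 5 WT libraries per tissue. The deposited values are unnormalized counts, 1 per gene symbol and library, and per the labels reads were aligned to mm9 with TopHat2 and HTSeq and DESeq are named among the tools. The annotation and strand setting of the counting are not given in the sources used here. The 24391 symbols held 80.5% to 87.6% of the reads of each library that fell on a gene, on no gene or were ambiguous. Reads of other summary lines are not in that total, and all summary lines were left out of the tests.

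Groups came from the labels. KI and WT were compared within each tissue with edgeR 4.0.16 in R 4.3.3 (quasi-likelihood test, TMM, filterByExpr, Benjamini-Hochberg adjustment over all genes tested, called at an adjusted p under 0.1). WT tissues were tested against a 2-fold difference over 15 libraries, and KI effects between tissues as interaction contrasts over 21 libraries. CPM uses total counts on genes, and RPKM divides it by the exon union in GENCODE annotation of NCBIM37. Alternatives were DESeq2 1.42.0, its size factors, total counts, no filter, all libraries in 1 fit, a replicate block, a subtracted length trend and each replicate left out. For KI against WT, the block compares each KI library with the WT library of its number. The other WT libraries do not enter that effect. On simulated counts with 200 genes changed 2-fold, the test called 22% in brain, 79.5% in liver and 21.5% in skin. The changed genes were drawn from those above a minimum mean count, and the simulated counts held no length trend. Changes below 2-fold, such as most of those of the members, were not simulated.

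The members and lists were chosen with earlier results of these data known. All members were named, and of each list at most the 4 called genes with the largest change or, with none called, the 2 most abundant. The 5 genes most like the members were named too, and any other gene was chosen after its values were seen. Some genes that this rule names are not reported here.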

Additional observations from a re-analysis of the deposited data

Results flagged for a closer look

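C1qa in the WT 1 skin, at 103.6 CPM, lay far from the other 4 WT skins, at 74.1 to 77.5 CPM. It was the only such library among 30 groups of 5 WT libraries examined, and chance alone would give about 1 in 20. The KI effect differed between brain and liver for Aif1 (log2 difference of the effects -1.35, adjusted p = 0.0600 in edgeR) and for Tyrobp (-1.24, adjusted p = 0.0314), and both genes had fold changes above 0 in the liver and below 0 in the brain. With KI 1 or KI 2 left out fewer differences of this kind were called, for these genes and over all genes alike, and the spread then came from the WT libraries alone.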

How the results depend on the processing

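In the brain 0 genes were called, against 514 with DESeq2, 614 in a fit of all libraries, 2165 with a replicate block and 0 to 1698 with 1 replicate left out, where 0 to 1 members were called. Brain log2 fold changes changed sign for Trem2 (0.035 in the fit of all libraries, 0.24 with the block, -0.15 to 0.10 with 1 replicate left out), C1qa (0.37 with the length trend subtracted, 0.040 with the block, -0.23 to 0.15), C1qb (0.37 with the trend subtracted, -0.21 to 0.0021), Tyrobp (0.17 with the trend subtracted) and C1qc (-0.085 to 0.13). In the liver 833 genes were called, against 1462 with DESeq2, 242 in the fit of all libraries, where 1 member was called, and 56 to 1290 with 1 replicate left out, where 0 to 7 members were. Liver Cx3cr1 was at -0.23 with the block and -0.16 to 0.23 with 1 replicate left out. In the skin DESeq2 called 109 genes and 2 members, the fit of all libraries 23 genes, the block 0, and leaving out 1 replicate 0 to 1, with the members' median at 0.31 to 0.78. Skin Cx3cr1 was at -0.18 with the block and -0.71 to 0.69 with 1 replicate left out, and Aif1 at -0.16 to 0.75. Between WT tissues, total counts gave 0.72 for P2ry12 in brain against liver (-0.24 to 0.093 with 1 replicate left out), and for liver against skin -0.27 for Cd68 and 0 members called, against 1 with DESeq2 and 3 to 5 with 1 replicate left out. Cx3cr1 in brain against skin ran from -0.21 to 0.10 and Trem2 in liver against skin from -0.16 to 0.031. Between the KI effects in brain and liver, 2 members and 508 genes were called, against 1372 genes with DESeq2 and 134 to 881 with 1 WT replicate left out. Aif1 was not called without WT 1 or WT 2. Fewer members and fewer genes were called with 1 KI replicate left out. The causes were not tested.

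KI and WT libraries of a tissue share numbers only: their deviations correlated at -0.08 to 0.17, and WT libraries of the same number in different tissues at -0.01 to 0.17. The replicate block left the number of members called at 6 in the liver and 0 in brain and skin. Its KI effect rests only on the WT libraries that share a number with a KI library, and Brain WT 5 is not among them. On simulated counts, most changes of 2-fold were missed in brain and skin, where 22% and 21.5% of the changed genes were called. In the liver, also with 2 KI libraries, 79.5% were called. Changes below 2-fold were not simulated.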
